A study of Mus musculus with 2 samples.

Results

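The VEGF and angiopoietin axis was followed through 9 genes, chosen by name as its ligands and receptors: the ligands Vegfa, Vegfc, Pgf, Angpt2 and Apln, and the receptors and co-receptor Flt1, Kdr, Nrp1 and Tek. All 9 were found by symbol among the 32285 genes of the tables, and all 9 had unique molecular identifiers (UMIs) in both libraries. They were read in 20428 cells of orthotopic mouse pancreatic tumors, 8739 from the FLOX library and 11689 from the library labelled MCT1-KO, to set the cells that carry the ligands against the endothelial cells that carry the receptors. According to the study's methods the mice were male, and the tumors grew from cells of the murine pancreatic tumor line KPC. These cells were placed with Matrigel under the pancreatic capsule, and the tumors were harvested some weeks later. The age and strain of these hosts are not given in the sources used here. FLOX stands for mice with floxed Slc16a1 (MCT1 fl/fl), the gene of the lactate transporter MCT1. MCT1-KO stands for Col1a2-CreERT2 mice in which tamoxifen, given before the tumor cells, was meant to delete Slc16a1 in pancreatic stellate cells (PSCs). Tamoxifen or corn oil, its solvent, was injected according to the study's methods. Which of them was given for the FLOX library is not stated in the sources used here. The Col1a2 promoter is active in fibroblasts in general, so the deletion is not limited to PSCs by design. The KPC cells, endothelial cells and leukocytes of both groups keep Slc16a1 by design.

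The genes belong to the signals by which tissues call in and shape blood vessels. VEGF-A, made by cells short of oxygen among others, binds VEGFR2 (Kdr), the main signaling receptor of endothelial cells, and VEGFR1 (Flt1), which binds it tightly but signals weakly and is also made as a soluble decoy; placental growth factor (Pgf) binds Flt1 and not Kdr, VEGF-C acts through VEGFR3 and Kdr, and neuropilin-1 (Nrp1) is a co-receptor that many cell types carry. Angiopoietin-2 (Angpt2), stored and released by activated endothelial cells, antagonizes angiopoietin-1 at the receptor Tie2 (Tek) in most settings and loosens vessels, while apelin (Apln) is a peptide of sprouting endothelial tip cells. Pancreatic tumors are known for sparse vessels in a dense stroma.

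Promoter windows, taken from RefSeq on GRCm38.p6 as the 250 bases before the annotated start, were listed for 8 of the 9 genes (Angpt2 was not listed). The windows of Flt1, Kdr and Tek are shown because these receptors had their highest level in endothelial-like cells, and that of Pgf because this ligand differed between the libraries in the cells that hold most of it. Capitals mark the core of the hypoxia response element, ACGTG or GCGTG, and the ETS sequence CCGGAA, each on either strand (the Tek window holds neither). CACGC and TTCCGG are thus the reverse strand's GCGTG and CCGGAA. The windows lie at chr5:147726012-147726261 for Flt1, chr5:75978456-75978705 for Kdr and chr12:85177314-85177563 for Pgf, all on the minus strand, and at chr4:94739039-94739288 on the plus strand for Tek, and are written 5′ to 3′ on their strand.
Flt1: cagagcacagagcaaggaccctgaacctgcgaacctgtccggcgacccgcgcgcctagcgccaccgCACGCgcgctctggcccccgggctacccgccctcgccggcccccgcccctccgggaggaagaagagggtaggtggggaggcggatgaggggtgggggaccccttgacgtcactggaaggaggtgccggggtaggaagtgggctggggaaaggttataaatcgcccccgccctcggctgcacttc
Kdr: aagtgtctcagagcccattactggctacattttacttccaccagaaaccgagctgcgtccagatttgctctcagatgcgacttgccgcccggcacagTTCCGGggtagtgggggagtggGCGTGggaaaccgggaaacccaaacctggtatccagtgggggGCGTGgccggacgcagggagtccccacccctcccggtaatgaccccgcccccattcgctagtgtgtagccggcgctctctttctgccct
Tek: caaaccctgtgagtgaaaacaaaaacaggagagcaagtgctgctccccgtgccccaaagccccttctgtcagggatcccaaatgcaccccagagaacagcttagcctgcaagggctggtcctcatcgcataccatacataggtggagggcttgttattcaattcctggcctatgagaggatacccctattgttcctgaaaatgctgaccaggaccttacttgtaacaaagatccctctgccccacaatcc
Pgf: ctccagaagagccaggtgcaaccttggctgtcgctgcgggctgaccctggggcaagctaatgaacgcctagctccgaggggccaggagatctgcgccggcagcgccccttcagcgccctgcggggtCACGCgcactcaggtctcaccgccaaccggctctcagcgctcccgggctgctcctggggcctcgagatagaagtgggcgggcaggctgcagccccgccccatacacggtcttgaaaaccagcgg
A hypoxia core was present in 5 of the 10 windows of these 8 genes (Vegfa, Pgf, Flt1, Kdr and Nrp1). Of all 32851 mouse windows 38.6% hold one. In Vegfa it was only in the window of the downstream start and not in that of the upstream start. That downstream window, chr17:46025164-46025413, lies inside the gene (chr17:46016993-46032369). In Pgf it was only in the window printed and not in that of another start. The ETS sequence CCGGAA was present in Kdr alone among these genes and in 12.03% of all windows. Shorter and other forms of ETS sites were not searched, so a window without capitals may still hold one. These are matches of letters in a short window and no measurement of binding.

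Each group is 1 library, so no test was possible and no p-value is given. How many tumors or mice a library was made from is not given in the sources used here. Levels are UMIs of a gene per 1000000 UMIs (CPM) of all cells of a class in a library, with exact 95% Poisson intervals, and ratios are CPM in the library labelled MCT1-KO over CPM in the FLOX library, with exact conditional 95% intervals. These intervals cover counting error only, not the spread between tumors, and a library and its genotype cannot be told apart. A cell was a barcode with at least 500 UMIs, 200 to 5000 genes and at most 8% mitochondrial UMIs; the kept cells held 61149689 UMIs in the FLOX library against 81494894 in the other, with medians of 4069 and 3706 UMIs per cell, and 59 barcodes were kept in both libraries. Cells were clustered without the 9 genes and named from fixed markers, and 24 clusters gave 10 classes, 1 small cluster led by Actg2, Myh11 and Rgs5 that is called the Rgs5 cluster, and 3 other clusters that stayed unnamed and are left out of the order of classes. The level of Slc16a1 in PSC-like cells did not fall with the label MCT1-KO. It had 55 UMIs (25.8 CPM) in the FLOX library against 111 UMIs (36.8 CPM) in the other, a ratio of 1.43 (1.02 to 2.01). All kept cells had 26.1 CPM and 37.6 CPM, a ratio of 1.44 (1.36 to 1.53). Ductal-like cells had 37.7 CPM and 46.0 CPM, a ratio of 1.22 (1.14 to 1.30). The part of RNA of other cells in the PSC-like value was not tested. A 3′ tag outside the deleted part would still be counted, and the deleted part is not given in the sources used here.

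The endothelial-like cluster held 122 cells in the FLOX library (1.40% of its cells) and 143 in the other (1.22%). All 9 endothelial markers were detected, among them Pecam1, Cdh5 and Plvap, with summed levels of 5129 CPM and 6098 CPM against 122 CPM and 101 CPM in empty barcodes of 10 to 100 UMIs. The cluster was named from these same markers, so their detection is no check of the label. Of 4 lymphatic markers, Mmrn1 had no UMI, Prox1 had 5 and 0, Pdpn 12 and 1 and Lyve1 14 and 12, and their summed level was 46.7 CPM and 28.4 CPM, against 31.96 CPM and 23.1 CPM in empty barcodes. Rgs5, a pericyte gene, had 42 and 45 UMIs in them. The cells of the library labelled MCT1-KO were shallower, with a median of 1920 UMIs against 4043.5, and RNA of other cells differed too: the summed level of 4 pan-immune genes was 2246 CPM in the FLOX library against 758 CPM in the other, all 4 detected in both, while 8 acinar genes summed to 43.6 CPM and 1292 CPM and 4 erythroid genes to 3.01 CPM and 896 CPM. The part of this RNA in the results on endothelial-like cells was not tested beyond the alternatives given with them. The ductal-like class of 2682 and 4016 cells is named weakly, since 5 of its 6 clusters detected 5 of 9 ductal markers.

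**Figure D1:**
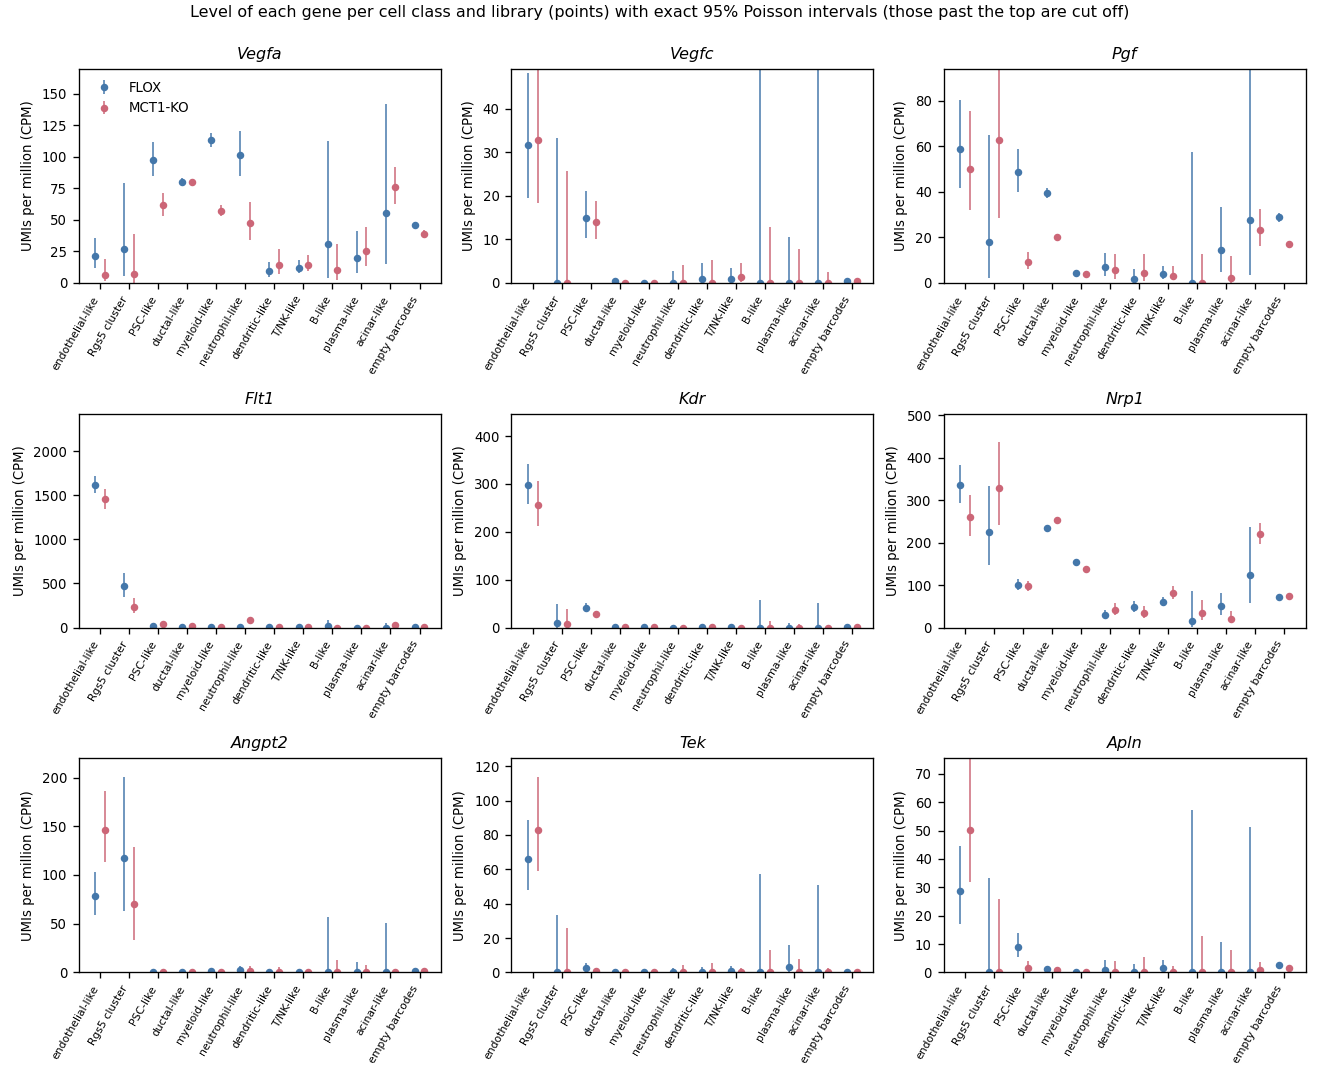
Level of each of the 9 genes (CPM, linear axes that differ between panels) in 11 cell classes and in empty barcodes, with FLOX in blue, MCT1-KO in red and exact 95% Poisson intervals, cut off at the top of a panel. Kdr and Tek stand out in endothelial-like cells (298 and 256 CPM for Kdr), whereas Vegfa is low there and high in myeloid-like, neutrophil-like, PSC-like and ductal-like cells.

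Vegfa, the principal ligand, was highest in myeloid-like, neutrophil-like, PSC-like and ductal-like cells and low in endothelial-like cells. In the FLOX library its level was 113 CPM (108 to 119) in myeloid-like cells, 102 CPM (85.1 to 121) in neutrophil-like cells and 97.9 CPM (85.1 to 112) in PSC-like cells. These 3 did not differ beyond their intervals, and ductal-like cells followed below them at 80.3 CPM (77.3 to 83.3). In the library labelled MCT1-KO the order was another: ductal-like cells led at 79.7 CPM (77.4 to 82.1), acinar-like cells overlapped them at 76.5 CPM (63.0 to 92.0), and PSC-like (61.6 CPM), myeloid-like (57.0 CPM) and neutrophil-like cells (47.4 CPM) came next, each overlapping its neighbor. Endothelial-like cells held 14 and 3 Vegfa UMIs, or 21.1 CPM and 6.56 CPM. Empty barcodes held 46.1 CPM and 39.1 CPM, and the free RNA estimated from acinar genes, 16.8% and 9.63% of the UMIs of these cells, would carry 7.74 CPM and 3.76 CPM of Vegfa. The FLOX level lay above the estimate by more than its interval (11.5 to 35.4) and the other did not (1.35 to 19.2). T/NK-like cells (12.1 CPM and 14.5 CPM) and dendritic-like cells (9.14 CPM and 14.5 CPM) were in the same low range.

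The other ligands were counted in fewer cells and in other places. Vegfc, the lymphatic growth factor, was highest in endothelial-like cells, with 21 UMIs (31.6 CPM) in the FLOX library against 15 (32.8 CPM) in the other, and next in PSC-like cells, with 32 UMIs (14.99 CPM) and 42 (13.9 CPM). These classes overlapped in both libraries, and every other named class had at most 15 UMIs in a library. Pgf was at 58.7 CPM (41.7 to 80.2) in endothelial-like cells of the FLOX library, at 48.7 CPM (39.8 to 59.0) in PSC-like cells and at 39.4 CPM (37.4 to 41.6) in ductal-like cells. Each of these overlapped the next. In the library labelled MCT1-KO the Rgs5 cluster (62.8 CPM, from 9 UMIs) and endothelial-like cells (50.3 CPM) were highest for Pgf, ductal-like cells were at 19.9 CPM, and PSC-like cells were below them at 9.27 CPM (6.16 to 13.4). Empty barcodes held Pgf at 28.8 CPM and 16.9 CPM, near the ductal-like level. Apln was highest in endothelial-like cells, at 28.6 CPM (19 UMIs) and 50.3 CPM (23 UMIs), and stood above the next class, PSC-like cells at 8.90 CPM and 1.66 CPM, in both libraries.

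The receptors were concentrated in endothelial-like cells. Flt1 was at 1617 CPM (1521 to 1716) in endothelial-like cells of the FLOX library and at 1456 CPM (1347 to 1571) in those of the other. The Rgs5 cluster followed at 470 CPM and 237 CPM, from 15 and 24 cells, and stood above all remaining classes in both libraries. Full-length and soluble Flt1 share a symbol in these tables and could not be told apart. Kdr was at 298 CPM (258 to 343) and 256 CPM (211 to 306) in endothelial-like cells, and PSC-like cells were next at 41.7 CPM (33.5 to 51.3) and 27.8 CPM (22.2 to 34.4). Outside these classes Kdr was nearly absent from the counts: 6698 ductal-like cells held 34 UMIs, myeloid-like cells 23, T/NK-like cells 1 and neutrophil-like cells 0. Tek was still more confined, with 44 and 38 UMIs (66.2 CPM and 83.1 CPM) in endothelial-like cells and no more than 8 UMIs in any other class of a library.

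Nrp1 followed another pattern. It was at 336 CPM (293 to 383) in endothelial-like cells of the FLOX library, above ductal-like cells at 234 CPM (229 to 240). In the library labelled MCT1-KO the Rgs5 cluster (328 CPM), endothelial-like cells (260 CPM) and ductal-like cells (252 CPM) overlapped. Myeloid-like cells were at 154 CPM and 138 CPM, PSC-like cells at 101 CPM and 97.7 CPM, and empty barcodes at 72.5 CPM and 75.1 CPM. The co-receptor was thus counted in all 11 classes, and T/NK-like cells, at 59.8 CPM and 81.5 CPM, were near the level of empty barcodes.

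Angpt2, the Tie2 ligand of activated endothelium, was counted in the same class as its receptor Tek and in the Rgs5 cluster. Endothelial-like cells held 52 UMIs (78.3 CPM, 58.5 to 103) in the FLOX library against 67 (146 CPM, 113 to 186) in the other. The levels of the Rgs5 cluster overlapped these, with 13 UMIs (117 CPM) and 10 UMIs (69.8 CPM). PSC-like cells and T/NK-like cells had no Angpt2 UMI in either library, which allows up to 1.73 CPM and 1.22 CPM in PSC-like cells, the upper limits of their exact intervals. Angpt1, the opposing ligand, was in turn low in endothelial-like cells, with 4 UMIs and 1 UMI. Its highest level was in the Rgs5 cluster in the FLOX library and in ductal-like cells in the other. Ductal-like cells held it at 33.0 CPM and 50.5 CPM.

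Set against all other kept cells of the same library, endothelial-like cells held 149-fold (135 to 164) more Flt1, by CPM, in the FLOX library against 77.6-fold (70.7 to 85.1) more in the other. For Kdr this was 140-fold (111 to 176) and 183-fold (140 to 240), and for Tek 223-fold (126 to 409) and 962-fold (424 to 2552). Angpt2 was 81.6-fold and 198-fold higher, Vegfc 35.4-fold and 57.8-fold, and Apln 22.8-fold and 83.1-fold. The spread between these genes and the other 3 was wide, since Pgf was only 2.17-fold and 3.08-fold higher, Nrp1 1.79-fold and 1.22-fold, and Vegfa was lower, at 0.250 and 0.0916 of the level of the other cells. The cluster was not built from these genes, but it was built from genes of the same cells, and Flt1 was among its 10 leading genes, so these folds are descriptions.

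In both libraries 5 of the 9 genes had their highest level in endothelial-like cells (Vegfc, Flt1, Kdr, Tek and Apln), where 4.91% of the 15465 genes with at least 50 UMIs did. Pgf, Nrp1 and Angpt2 were highest there in 1 library and in the Rgs5 cluster in the other, and Vegfa in neither. With a resolution of 0.4, or with classes set by markers per cell, 8 of the 9 were highest in endothelial-like cells in both libraries. Markers per cell form no Rgs5 cluster. At a resolution of 0.4 the PSC-like class grew from 222 and 399 to 237 and 422 cells, where the Rgs5 cluster had 15 and 24. The rise to 8 therefore cannot test the order against that cluster. Of the other receptors listed beside the 9 genes, 4 of 5 were highest in endothelial-like cells in both libraries (Flt4, Tie1, Ptprb and Aplnr), with Nrp2 as the exception. Of 12 genes of endothelial tip cells and the VEGF response, 9 were highest there, and of 6 angiogenesis inhibitors 2 (Vash1 and Sema3f). None of the 4 other ligands with counts was: Vegfb was highest in ductal-like cells and Vegfd in PSC-like cells in both libraries, Angpt1 and Angpt4 changed class between the libraries, and Apela had no UMI in kept cells.

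The receptors were also found in many single endothelial-like cells. Flt1 was detected in 68.9% (59.8 to 76.9) of endothelial-like cells of the FLOX library and in 69.9% (61.7 to 77.3) of those of the other, exact binomial intervals. The share in T/NK-like cells, which should lack the receptor, was 2.06% and 0.828%, at median depths of 3002 and 2442 UMIs. The receptor was therefore far above background. With each cell thinned to 1000 UMIs, which left 97 and 108 endothelial-like cells and left out 25 and 35, the Flt1 shares were 57.7% and 60.2%. Kdr was detected in 51.6% and 40.6% of endothelial-like cells (30.9% and 19.4% when thinned), Nrp1 in 57.4% and 44.1% (35.1% and 24.1%), and Tek in 23.0% and 19.6% (9.28% and 12.04%). Of the 184 endothelial-like cells with a Flt1 UMI, 111 also held Kdr and 117 Nrp1, and cells without one were shallower, with a median of 1006 UMIs against 3886.

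**Figure D2:**
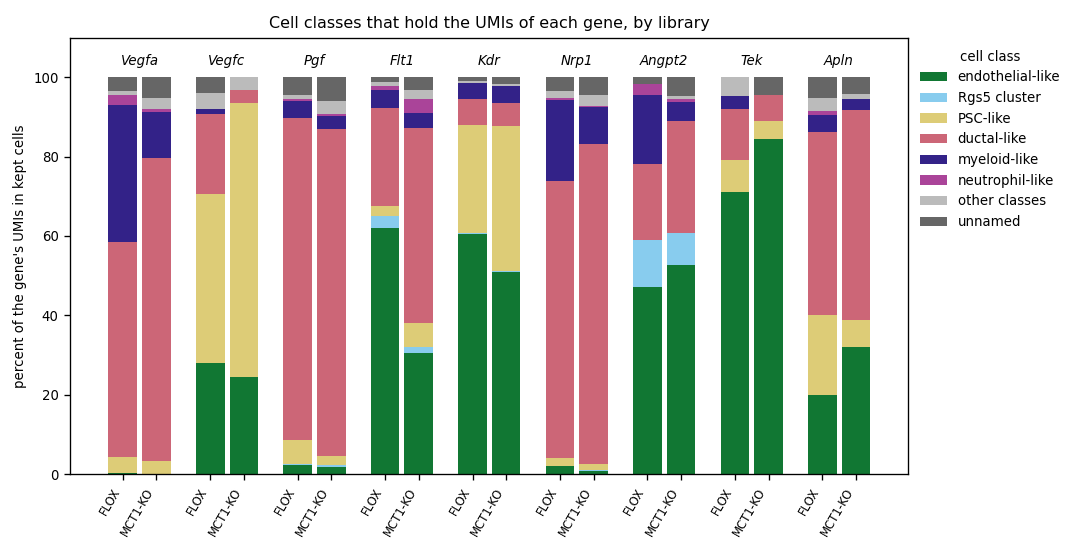
Share of each gene's UMIs in kept cells (percent) held by each cell class, 1 bar per library. Ductal-like cells (red) hold 54.1% of the Vegfa UMIs in the FLOX bar and 76.4% in the MCT1-KO bar, and endothelial-like cells (green) hold 62.1% and 30.5% of the Flt1 UMIs.

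A class can lead by level or by number. Ductal-like cells, 30.7% and 34.4% of the cells, held 54.1% (52.8 to 55.5) of the Vegfa UMIs of the FLOX library and 76.4% (75.3 to 77.5) of those of the other, where they held 56.5% and 68.3% of all UMIs. Myeloid-like cells held 34.4% (33.1 to 35.7) and 11.7% (10.8 to 12.5), at 29.2% and 19.0% of the cells and 25.4% and 14.6% of all UMIs. Ductal-like cells were thus the cluster-based class with most Vegfa UMIs in both libraries, although myeloid-like cells had the higher level in the FLOX library. With no upper limit on genes, ductal-like cells numbered 4310 and 5117 rather than 2682 and 4016, a larger gain in the FLOX library. The shares printed here hold for cells under that limit. With classes set by markers per cell, which left 557 and 744 ductal-like cells, they held 11.7% and 12.2% of the Vegfa UMIs and myeloid-like cells 44.9% and 14.1%. The ductal-like clusters held 81.2% and 82.4% of the Pgf UMIs and 69.8% and 80.5% of the Nrp1 UMIs as well, against 14.97% and 13.4% of Pgf and 13.98% and 11.99% of Nrp1 with classes set by markers per cell. PSC-like cells, 2.54% and 3.41% of the cells, held 42.7% and 68.9% of the Vegfc UMIs and 27.2% and 36.5% of the Kdr UMIs.

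Endothelial-like cells were 1.40% and 1.22% of the cells and held 1.09% and 0.561% of all UMIs. They held the largest share of the Kdr and Tek UMIs in both libraries and of the Flt1 UMIs in the FLOX library. They had 62.1% (59.7 to 64.4) of the Flt1 UMIs in the FLOX library against 30.5% (28.5 to 32.4) in the other. They had 60.6% and 50.9% of the Kdr UMIs, 71.0% and 84.4% of the Tek UMIs and 47.3% and 52.8% of the Angpt2 UMIs. The Flt1 share differed most between the libraries, and ductal-like cells held 24.6% of Flt1 in the FLOX library against 49.1% in the other (5.14% and 6.45% with classes set by markers per cell).

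Between the libraries, Vegfa was lower in the myeloid-like, neutrophil-like and PSC-like cells of the library labelled MCT1-KO but not in its ductal-like cells. In myeloid-like cells Vegfa had 1761 UMIs (113 CPM) in the FLOX library against 677 UMIs (57.0 CPM) in the other, a ratio of 0.503 (0.460 to 0.550). In neutrophil-like cells it had 133 UMIs (102 CPM) and 43 UMIs (47.4 CPM), a ratio of 0.467 (0.323 to 0.663). In PSC-like cells it had 209 UMIs (97.9 CPM) and 186 UMIs (61.6 CPM), a ratio of 0.629 (0.514 to 0.770), which was within 1.5-fold with no upper limit on genes (0.732) and with classes set by markers per cell (0.768). The intervals of the libraries did not overlap in any of these classes. In ductal-like cells the 2772 and 4438 UMIs gave 80.3 CPM and 79.7 CPM, a ratio of 0.993 (0.947 to 1.04) and levels that overlapped. Vegfa in empty barcodes had a ratio of 0.847 (0.781 to 0.920).

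The share of cells with a Vegfa UMI was lower in myeloid-like cells at equal depth, and the other classes overlapped when thinned. It was 36.5% of myeloid-like cells in the FLOX library against 21.4% in the other, and 9.53% (8.37 to 10.8) and 5.30% (4.38 to 6.35) when each cell was thinned to 1000 UMIs. In ductal-like cells it was 47.4% and 50.6%, and 6.35% and 7.05% thinned. Neutrophil-like cells had 12.7% and 5.40%, and 8.66% and 5.73% thinned. PSC-like cells had 36.0% and 27.8%, and 8.21% (4.76 to 13.0) and 6.61% (4.28 to 9.68) thinned.

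RNA of other cells moved beside these ratios. Acinar genes, the digestive enzymes, were past 1.5-fold upwards for 8 of 8 genes in each of the 4 classes, and their summed level was 61.8 to 148 CPM in the FLOX library against 640 to 5033 CPM in the other. In neutrophil-like cells 4 of 7 myeloid markers with enough UMIs and 3 of 4 pan-immune genes were lower as well, with medians of 0.592 and 0.563. In PSC-like cells 4 of 7 PSC markers were lower (median 0.648), while 3 of 5 ductal markers were higher (2.18). In ductal-like cells 4 of 4 pan-immune genes (median 0.445), 8 of 10 myeloid (0.434), 5 of 6 neutrophil (0.426) and 5 of 7 PSC markers (0.532) were lower, and 7 of 7 endocrine markers were higher (405). In myeloid-like cells 3 of 5 ductal markers were higher (1.52) and 3 of 4 T/NK markers lower (0.349). Of 6 neutrophil markers there, 3 were lower and 1 higher (0.626). In PSC-like cells 4 of 10 myeloid markers were higher and 0 lower (1.11). With free RNA subtracted, Vegfa had ratios of 0.401 in myeloid-like, 0.396 in neutrophil-like, 0.523 in PSC-like and 0.906 in ductal-like cells, so that it stayed below 1 in each of them. The estimate was too high for some FLOX classes, with 18.9 CPM of free Vegfa in T/NK-like cells that had 12.1 CPM. For dendritic-like cells it was 14.6 CPM against 9.14 CPM. It took 23.8% and 4.77% of ductal-like UMIs, and all ratios with free RNA subtracted share this limit. The part of the other markers in the Vegfa ratios was not tested.

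Pgf, which signals through Flt1 alone, was lower in the cells that hold most of it. In ductal-like cells it had 1361 UMIs (39.4 CPM) in the FLOX library against 1110 (19.9 CPM) in the other, a ratio of 0.506 (0.467 to 0.548). In PSC-like cells it had 104 UMIs (48.7 CPM) and 28 (9.27 CPM), a ratio of 0.190 (0.121 to 0.291), where a single FLOX cell held 33 of the 104 UMIs. Without the cell with most Pgf in each library the PSC-like ratio was 0.238, and with classes set by markers per cell it was 0.494. The PSC-like class is 1 cluster, and its other genes differed between the libraries. Its 190 and 376 cells without Pgf held 1334 and 559 UMIs of Acta2 (smooth muscle actin) and 577 and 10839 of the chemokine Cxcl13. The part of this in the PSC-like ratios of the members was not tested. In endothelial-like cells the 39 and 23 UMIs (58.7 CPM and 50.3 CPM) gave 0.856 (0.488 to 1.47), which overlapped 1. Empty barcodes had a ratio of 0.587 (0.521 to 0.659) for Pgf, close to that of ductal-like cells. The ratio in myeloid-like cells was 0.879 (0.594 to 1.29), from levels of 4.50 CPM and 3.96 CPM that lay under those of the empty barcodes, and 0.344 with classes set by markers per cell.

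Flt1 was higher in the PSC-like, ductal-like and neutrophil-like cells of the library labelled MCT1-KO and not in its endothelial-like cells or Rgs5 cluster. In endothelial-like cells its 1074 and 666 UMIs gave a ratio of 0.900 (0.816 to 0.993), which was 1.00 with no upper limit on genes per cell and 0.542 in the 8 and 66 endothelial-like cells without a UMI of 4 pan-immune genes. In the Rgs5 cluster the 52 and 34 Flt1 UMIs (470 CPM and 237 CPM) gave a ratio of 0.505 (0.318 to 0.793), where a single cell held 27 of the 52 and another 15 of the 34. In PSC-like cells it had 43 UMIs (20.1 CPM) in the FLOX library against 133 (44.0 CPM) in the other, a ratio of 2.19 (1.54 to 3.16), which fell to 1.25 when cells were clustered at a resolution of 0.4. That setting gave 237 and 422 PSC-like cells against 222 and 399. The gain was near the 15 and 24 cells of the Rgs5 cluster, which had the higher Flt1 level given above. In ductal-like cells it had 426 UMIs (12.3 CPM) and 1074 (19.3 CPM), a ratio of 1.56 (1.40 to 1.75). The ductal-like ratio was within 1.5-fold under other settings, at 1.47 with a mitochondrial limit of 15%, 1.43 with free RNA subtracted, 1.37 with no upper limit on genes and 1.21 with classes set by markers per cell. These levels were a small part of the endothelial level, but ductal-like cells were so many that they held more Flt1 UMIs than endothelial-like cells in the library labelled MCT1-KO. In neutrophil-like cells Flt1 had 16 UMIs in 16 cells (12.2 CPM) and 73 UMIs in 49 cells (80.6 CPM), a ratio of 6.59 (3.80 to 12.1), with at most 1 UMI per cell in the FLOX library against 9 in the other. The share of neutrophil-like cells with Flt1 was 2.11% and 6.96%, and 1.28% (0.586 to 2.41) and 6.88% (4.69 to 9.68) thinned to 1000 UMIs, which left out 54 and 268 cells. Flt1 in empty barcodes, at 6.97 CPM and 7.59 CPM, had a ratio of 1.09 (0.892 to 1.33). Free RNA was estimated at 56.8% and 37.5% of the UMIs of neutrophil-like cells, and its part in this result was not tested beyond its subtraction, which gave a ratio of 8.57.

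Within endothelial-like cells most members were close in level. Kdr, with 198 and 117 UMIs (298 CPM and 256 CPM), had a ratio of 0.858 (0.677 to 1.08), or 0.559 in the 8 and 66 cells without immune UMIs, and Tek, with 44 and 38 UMIs (66.2 CPM and 83.1 CPM), of 1.25 (0.791 to 1.98). Nrp1, with 223 and 119 UMIs (336 CPM and 260 CPM), had a ratio of 0.775 (0.615 to 0.972). In all endothelial-like cells these were within 1.5-fold. Angpt2 was past it with an interval above 1, at 78.3 CPM and 146 CPM, a ratio of 1.87 (1.28 to 2.74). It was detected in 15 of 122 cells (12.3%, 7.05 to 19.5) in the FLOX library against in 34 of 143 (23.8%, 17.1 to 31.6) in the other, and in 4.12% (1.13 to 10.2) and 11.1% (5.87 to 18.6) when thinned to 1000 UMIs. Apln, at 28.6 CPM and 50.3 CPM, had a ratio of 1.76 (0.916 to 3.41), or 1.42 with no upper limit on genes, which its 19 and 23 UMIs could not separate from 1. Vegfc, at 31.6 CPM and 32.8 CPM, had a ratio of 1.04 (0.497 to 2.11), or 0.700 in cells with at least 1000 UMIs, and Vegfa, from 14 and 3 UMIs, of 0.311 (0.0573 to 1.11).

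Kdr and Apln were also counted outside the endothelium. Kdr in PSC-like cells had 89 and 84 UMIs (41.7 CPM and 27.8 CPM), a ratio of 0.667 (0.489 to 0.909), which turned to 1.17 with classes set by markers per cell. Apln in PSC-like cells had 19 and 5 UMIs, a ratio of 0.186 (0.0543 to 0.515), and in ductal-like cells 44 and 38 UMIs, a ratio of 0.536 (0.338 to 0.846), or 0.727 with free RNA subtracted. Nrp1 was nearly level in the classes with the most counts, at 0.897 (0.842 to 0.956) in myeloid-like cells and at 1.08 (1.05 to 1.11) in ductal-like cells, where it turned to 0.924 with free RNA subtracted and 0.982 with classes set by markers per cell.

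The number of members past 1.5-fold was read against all genes with at least 50 UMIs in the class. In endothelial-like cells 1 of 6 members was past it upwards (Angpt2) and none downwards, against 7.20% upwards and 14.2% downwards of 3544 genes. In PSC-like cells 1 of 6 was higher (Flt1) and 2 lower (Vegfa and Pgf), against 9.82% and 11.4% of 8373 genes. In ductal-like cells 1 of 6 was higher (Flt1) and 2 lower (Pgf and Apln), against 5.86% and 8.54% of 13401 genes. In myeloid-like cells 0 of 4 were higher and 1 lower (Vegfa), against 9.11% and 9.05% of 11420 genes, and in neutrophil-like cells 1 of 3 was higher (Flt1) and 1 lower (Vegfa), against 13.8% and 10.4% of 4902 genes. With so few members per class these counts describe the genes and not the axis; the median ratio of the members in endothelial-like cells was 0.879, and that of all genes there 0.952.

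**Figure D3:**
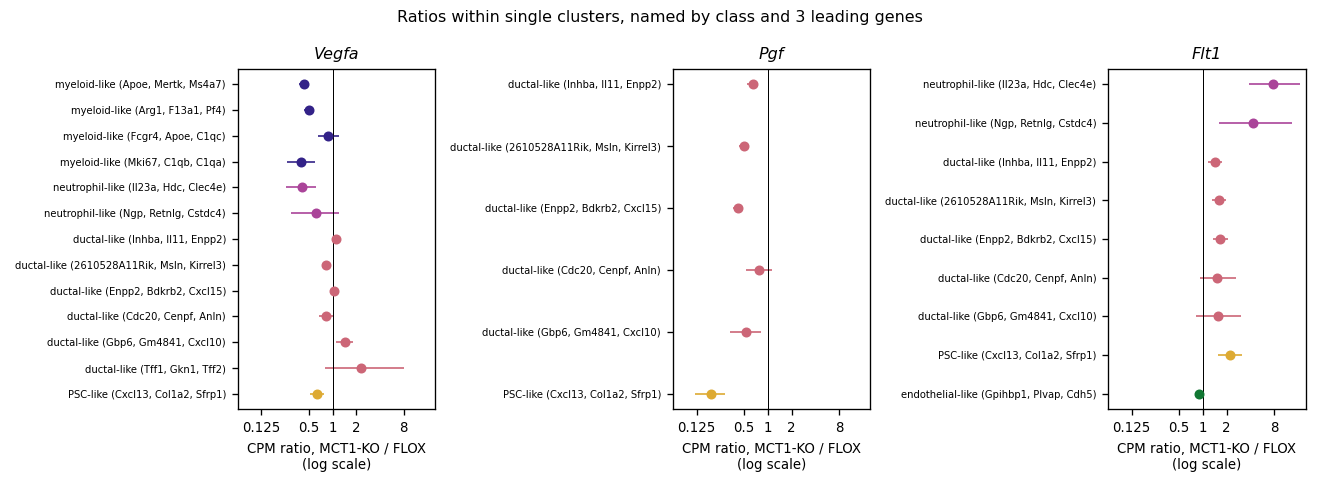
Ratios of Vegfa, Pgf and Flt1 (MCT1-KO over FLOX, log axis, exact conditional 95% intervals) in single clusters, named by class and 3 leading genes. Vegfa lies at 0.403 to 0.885 in the 4 myeloid-like clusters and on both sides of 1 in the ductal-like clusters, Pgf below 1 and Flt1 above 1 in each ductal-like cluster shown.

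The classes are sums of clusters that take different shares of each library, so the ratios were also read cluster by cluster. For Vegfa, myeloid-like cells led by Apoe, Mertk and Ms4a7 stood at 114 CPM and 49.8 CPM, a ratio of 0.437 (0.379 to 0.502), and those led by Arg1, F13a1 and Pf4 at 136 CPM and 68.9 CPM, a ratio of 0.506 (0.437 to 0.585). Cycling myeloid-like cells led by Mki67 had 0.403 (0.264 to 0.596), whereas the shallow cluster led by Fcgr4 and Apoe had 0.885 (0.653 to 1.21). Vegfa was thus lower in 3 of 4 myeloid-like clusters by more than their counting error. Of the neutrophil-like clusters, the one led by Il23a and Hdc had 0.406 (0.261 to 0.617) and the one led by Ngp and Retnlg 0.616 (0.298 to 1.20).

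Ductal-like clusters went both ways for Vegfa, which the level of their sum did not show. The cluster led by Inhba and Il11 had 103 CPM and 114 CPM, a ratio of 1.11 (1.01 to 1.21), and the one led by the interferon-response genes Gbp6 and Cxcl10 had 1.42 (1.10 to 1.84). The one led by Msln and Kirrel3 had 89.1 CPM and 74.4 CPM, a ratio of 0.835 (0.772 to 0.904). Pgf was lower in all 5 ductal-like clusters with Pgf UMIs in both libraries, with ratios of 0.420 to 0.772, of which 4 had intervals under 1. Flt1 had ratios of 1.42 to 1.66 in these 5 clusters, of which 3 had intervals above 1, and 7.64 (3.87 to 16.8) and 4.30 (1.60 to 13.4) in the neutrophil-like clusters.

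**Figure D4:**
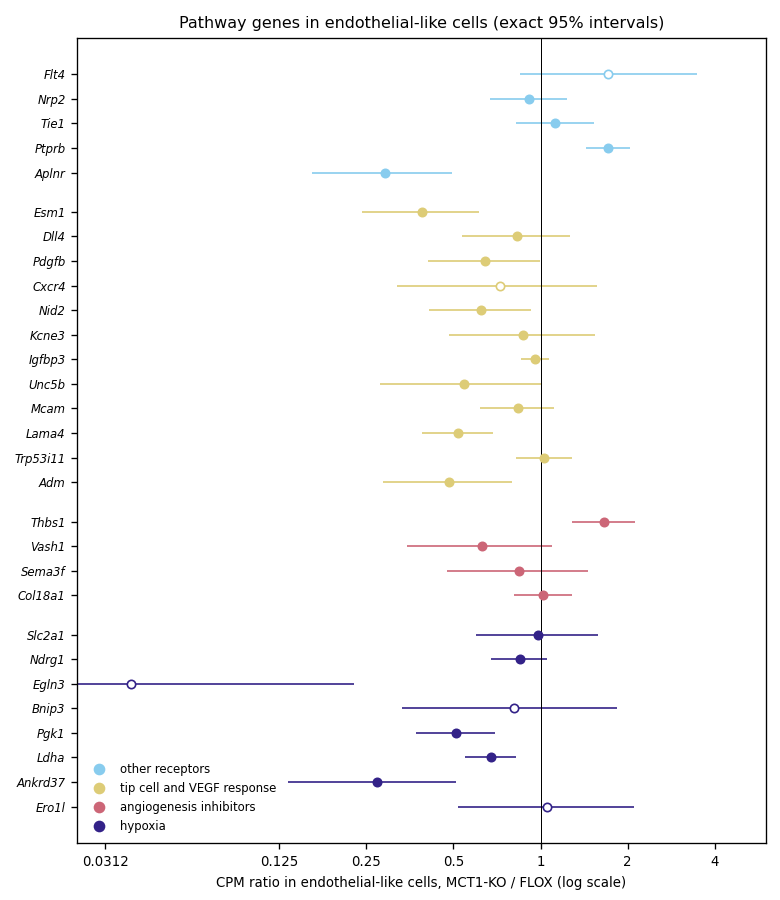
Ratios (MCT1-KO over FLOX, log axis, exact conditional 95% intervals) in endothelial-like cells of the other receptors, the tip cell and VEGF response genes, the angiogenesis inhibitors and the hypoxia genes, with open points for genes under 50 UMIs. Ptprb lies at 1.71 and Aplnr at 0.290, and 6 tip cell and VEGF response genes lie below the lower 1.5-fold limit.

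The lists set beside the members are pathway lists, chosen with earlier results of these data known. In endothelial-like cells 6 of the 11 tip cell and VEGF response genes with enough UMIs were more than 1.5-fold lower and none higher, where 14.2% of all genes were lower and 7.20% higher, with a median ratio of 0.643 against 0.952 for all genes. With no upper limit on genes per cell 3 were lower, with a median of 0.846, and in cells without immune UMIs 1 gene of the list had enough UMIs and none was lower. Genes of this list were lower in other classes too, for 7 of 10 in ductal-like cells (median 0.540), against 8.54% of all genes. In PSC-like cells 2 of 5 were lower and 1 higher (0.700), against 11.4% and 9.82%. In myeloid-like cells 2 of 5 were lower (0.886), against 9.05%, and in neutrophil-like cells 1 of 1 (0.392), against 10.4%. In endothelial-like cells Esm1, a secreted proteoglycan of tip cells, was lowest, at 140 CPM and 54.6 CPM, a ratio of 0.390 (0.240 to 0.613). Trp53i11 was highest at 1.03 (0.823 to 1.29). Igfbp3, the most counted of the list there, was at 1162 CPM and 1110 CPM, a ratio of 0.956 (0.853 to 1.07). The other 5 genes past the limit, named after their values were seen, were Adm (0.484), Lama4 (0.519), Unc5b (0.545), Nid2 (0.625) and Pdgfb (0.643).

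Among the other receptors in endothelial-like cells, 1 of 4 was past 1.5-fold upwards and 1 downwards. Ptprb, a phosphatase that restrains Tie2, was at 361 CPM and 616 CPM, a ratio of 1.71 (1.43 to 2.04). Aplnr, the apelin receptor, was at 128 CPM and 37.2 CPM, a ratio of 0.290 (0.162 to 0.493). The ratios of apelin and its receptor thus lay on opposite sides of 1, with 1 inside the interval of apelin, while Tie1 had 1.13 (0.823 to 1.54). Of 4 inhibitors 1 was past the limit upwards and 1 downwards: Thbs1, the antiangiogenic matrix protein thrombospondin-1, was at 1.65 (1.29 to 2.13) and Vash1, an inhibitor made by endothelial cells, at 0.627 (0.346 to 1.10). Hypoxia genes had 3 of 6 past the limit downwards, against 14.2% of all genes, and none upwards, with a median of 0.592; Ankrd37 was the lowest at 0.272 (0.134 to 0.509) and Slc2a1, the glucose transporter GLUT1, the highest at 0.979 (0.600 to 1.58). RNA of immune cells was also lower in these endothelial-like cells (2246 CPM and 758 CPM), and its part in these ratios was not tested, since the 8 FLOX cells without immune UMIs left 1 hypoxia gene with enough counts.

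In the Vegfa-carrying classes the hypoxia list was set beside Vegfa. In myeloid-like cells 5 of 9 hypoxia genes were more than 1.5-fold lower and 1 higher, against 9.05% and 9.11% of all genes, with a median ratio of 0.634 against 1.02 for all genes, beside 0.503 for Vegfa. In neutrophil-like cells 5 of 8 were lower and none higher, against 10.4% and 13.8%, with a median of 0.620 against 1.08, beside 0.467 for Vegfa. In ductal-like cells 5 of 10 were lower and none higher, against 8.54% and 5.86%, with a median of 0.782 against 1.01, although Vegfa was level there. PSC-like cells differed from these, since 0 of 9 hypoxia genes were past the limit, against 11.4% lower and 9.82% higher, with a median of 1.07 against 0.975, beside 0.629 for Vegfa. Slc2a1 itself had 0.554 (0.501 to 0.612) in myeloid-like and 1.02 (0.967 to 1.07) in ductal-like cells.

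Within a class, cells with a Vegfa UMI were compared with cells without one, as summed CPM over both libraries. All 10 hypoxia genes were higher in Vegfa-positive cells in myeloid-like (median 1.66-fold, 8 intervals above 1), ductal-like (1.38-fold, 10 intervals) and PSC-like cells (1.66-fold, 9 intervals). In neutrophil-like cells 6 of 10 were higher, with 1 interval above and 1 below 1 and a median of 1.07-fold. The share of all genes that were higher in these splits was not computed, so whether the counts are particular to hypoxia genes was not tested. Vegfa-positive cells were deeper in all 4 classes, for example 6574 against 4771 UMIs in myeloid-like cells, and CPM is a share of the cells' UMIs, so depth moves with this split. The library moved with it too, since 932 of the 1407 Vegfa-positive myeloid-like cells were FLOX, against 2555 of all 4771. Within the FLOX library and within the other, the median folds were 1.51 and 1.45 in myeloid-like, 1.47 and 1.29 in ductal-like, 1.73 and 1.67 in PSC-like, and 0.911 and 1.25 in neutrophil-like cells.

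Angpt2 marked a minority of endothelial-like cells. The 49 cells with Angpt2, 15 from FLOX and 34 from the other library, had a median of 7631 UMIs against 2003 in the 216 without. They held 3.78-fold (1.94 to 7.64) more Apln, 3.28-fold (2.24 to 4.86) more Esm1, 2.39-fold (1.41 to 4.08) more Pgf and 2.37-fold (1.85 to 3.05) more Lama4. Of these 49 cells, 10 held Apln, 12 Esm1, 13 Pgf and 28 Lama4. Flt1 (0.934, 0.842 to 1.04), Kdr (0.826, 0.639 to 1.06) and Tek (0.868, 0.516 to 1.42) did not differ beyond their intervals. The pericyte gene Rgs5 was lower in them, at 8.28 CPM (3 UMIs in 2 cells) against 111 CPM (84 UMIs). Few endothelial-like cells held Rgs5 at all, since 117 of 122 and 128 of 143 had no UMI of it. The 18 cells with Apln likewise held 6.53-fold (4.20 to 10.2) more Adm, a vasoactive peptide, 4.05-fold (2.76 to 5.91) more Esm1 and 2.61-fold (1.74 to 3.86) more Angpt2. Of these 18 cells, 12 held Adm, 7 Esm1 and 10 Angpt2. Of the 12 tip cell and VEGF response genes, 9 had an interval above 1 in cells with Angpt2 (median 1.78-fold) and 10 in cells with Apln (median 2.13-fold), and none had one below 1, whereas Unc5b, a guidance receptor, was at 1.02 (0.547 to 1.84) and 1.24 (0.578 to 2.44). General endothelial genes were above 1 with Angpt2 too: Plvap (1.11, 1.003 to 1.24), Pecam1 (1.24, 1.07 to 1.45) and Gpihbp1 (1.46, 1.30 to 1.64). With Apln only Gpihbp1 was (1.67, 1.46 to 1.90), beside Plvap at 0.920 and Pecam1 at 0.977. The share of all genes above 1 in these splits was not computed. Depth moved with these splits as well.

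The genes whose level over the 24 clusters was most like that of a member were found among 12699 genes by Pearson's r of log2(CPM + 1), libraries summed. Tek was most like Tie1 (r = 0.976), Vegfc like Fgd5 (r = 0.966), Kdr like Nox4 (r = 0.952), Angpt2 like Tmem252 (r = 0.936) and Apln like Cd34 (r = 0.913). Pgf was most like Gm15050 (r = 0.922), Nrp1 like Plekhg2 (r = 0.916), Flt1 like Ppp1r2 (r = 0.874) and Vegfa like Ftl1 (r = 0.857). Clusters share libraries and depth, and the values are descriptions.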

How the data were processed

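Single-cell suspensions of FLOX and MCT1-KO tumors were sequenced as 1 library each, according to the labels with a SeekOne 3′ kit. The deposited values were raw UMI counts per gene and barcode, 1437105 and 1433633 barcodes with 177334432 and 151118092 UMIs, made by the authors with Fastp and SeekOneTools; whether intronic reads were counted is not given in the sources used here. The submitters' notes name Seurat 4.0.0 and a human genome build, whereas the gene IDs are those of mouse, so the build stays unknown, and the labels and the methods name different cell capture systems. From the counts, cells were kept as stated above, which removed 2062 and 1231 barcodes for more than 5000 genes and 997 and 352 for mitochondrial share. Seurat 5.3.0 integrated the libraries by canonical correlation anchors (2000 variable genes, 20 dimensions, resolution 0.8). A cluster took the class whose markers it detected, unless leading genes spoke against it or its depth was low, and these naming limits were set after the clusters were seen. Doublets stayed in and were left out in an alternative. Ratios were computed in Python with scipy 1.17.1 and checked on simulated counts, and genes under 50 UMIs in a class were not counted as past 1.5-fold. The members and lists were chosen with earlier results of these data known. All 9 members were named, and pathway genes when at 0, at the ends of their list in endothelial-like cells, or of the highest level; other names were chosen after their values were seen. Columns of per-sample values left unmapped numbered 0.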

Additional observations from a re-analysis of the deposited data

Results flagged for a closer look

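Flt1 differed between the libraries in opposite directions in different cell classes. The level in the library labelled MCT1-KO was 2.19 times (1.54 to 3.16) the FLOX level in PSC-like cells, 1.56 times (1.40 to 1.75) in ductal-like cells and 6.59 times (3.80 to 12.1) in neutrophil-like cells, and 0.900 times (0.816 to 0.993) in endothelial-like cells, where it was 1.00 with no upper limit on genes and 0.542 in the 8 and 66 cells without immune UMIs. The Rgs5 cluster was lower, at 0.505 times (0.318 to 0.793), from 15 and 24 cells, of which 1 cell held 27 of the 52 FLOX UMIs and 1 held 15 of the 34 others. Over 12 alternatives the lowest ratio was 1.25 in PSC-like, 1.21 in ductal-like and 5.68 in neutrophil-like cells. With 1 library per group the difference between the classes was not tested.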

How the results depend on the processing

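With 1 library per group and no test, intervals cover counting error only, and 1 shallow endothelial-like cluster of 122 and 143 cells limits every endothelial ratio. Ratios of the members kept within their counting interval in 319 of 342 comparisons with an alternative and left it in 23. None past 1.5-fold in the classes read turned to the other side of 1. Kdr in PSC-like cells, at 0.667 (0.489 to 0.909) just inside that limit, did turn, to 1.17 with classes set by markers per cell. Levels left it in 124 of 1026 comparisons, shares of UMIs in 165 of 990, and shares of endothelial-like cells with a UMI, when thinned, in 21 of 36. Angpt2 in endothelial-like cells ranged from 1.73 to 2.15 over 13 alternatives. Flt1 in neutrophil-like cells ranged from 5.68 to 8.98, Pgf in ductal-like cells from 0.474 to 0.546, and Vegfa from 0.523 to 0.768 in PSC-like and from 0.396 to 0.584 in neutrophil-like cells, each over 12. With no upper limit on genes, Flt1 was 1.00 in endothelial-like and 1.37 in ductal-like cells, and 3 rather than 6 tip cell and VEGF response genes were lower in endothelial-like cells. In the 8 and 66 endothelial-like cells without immune UMIs, Flt1 was 0.542, Kdr 0.559, and 0 such genes were lower, because 1 had enough UMIs. With classes set by markers per cell, Pgf was 0.494 in PSC-like cells, Flt1 1.21 and Vegfa 0.901 in ductal-like cells, and Vegfa 0.585 in myeloid-like cells. In that setting, as with a resolution of 0.4, 8 members rather than 5 were highest in endothelial-like cells in both libraries. That count cannot test the order against the Rgs5 cluster, for the reason given with it. With free RNA subtracted, Vegfa was 0.906 in ductal-like and 0.401 in myeloid-like cells. Where not named, the cause was not tested. The alternatives without the cell with most UMIs and without Rgs5-containing cells were chosen after seeing the data. No paired analysis was possible because each group has 1 library.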

Other observations

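Cells picked by 1 UMI of a member were described by the other genes they held, as CPM summed over both libraries, with genes named after their values were seen. The 89 PSC-like cells with a Kdr UMI, 41 of them FLOX, held 10.97-fold (7.36 to 16.7) more Upk1b, 9.16-fold (5.99 to 14.3) more Krt7, 8.93-fold (5.70 to 14.3) more Msln and 5.35-fold (3.62 to 7.95) more Upk3b than PSC-like cells without one, genes known from mesothelium, the lining of the abdominal organs. Few of the 89 cells carried them, since 21 held Upk1b, 19 Upk3b, 12 Msln and 11 Krt7. Dcn, a fibroblast matrix gene, was nearly level at 1.06-fold (1.03 to 1.09), the endothelial gene Pecam1 had 4 and 17 UMIs (0.896, 0.219 to 2.75), and Nrp1 was lower at 0.405 (0.295 to 0.544). The cells with Kdr were deeper, with a median of 12670 against 6653.5 UMIs.

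The 55 PSC-like cells with Pgf held 2.38-fold (2.17 to 2.60) more Acta2, the smooth muscle actin of contractile fibroblasts, and 0.0643 (0.0522 to 0.0782) of the Cxcl13, a B-cell chemokine, of the PSC-like cells without Pgf, and Flt1, the receptor of Pgf, was at 0.171 (0.0460 to 0.445). Their median was 11122 against 7164.5 UMIs, and 32 of the 55 were FLOX, against 190 of the 566 others. Within the FLOX library and within the other, Acta2 was 1.49-fold (1.33 to 1.65) and 3.44-fold (2.84 to 4.14) higher, Cxcl13 at 0.0877 and 0.109, and Flt1 at 0.1004 (1 UMI against 42) and 0.310 (3 against 130). The 65 neutrophil-like cells with Flt1, 16 of them FLOX, had 1 UMI each of Pecam1, Cdh5 and Ecscr, 0 of the other 6 endothelial markers and 0 of Kdr and Tek. Of 7 neutrophil markers S100a8 (1.40-fold, 1.36 to 1.44) and S100a9 (1.42-fold, 1.38 to 1.47) were higher in them, Cxcr2 (0.446, 0.271 to 0.693), Csf3r (0.622), G0s2 (0.646) and Il1r2 (0.819) were lower and Retnlg (0.919, 0.840 to 1.003) overlapped 1, at a median of 1187 against 1276 UMIs. Of the other neutrophil-like cells 742 of 1397 were FLOX, and within the FLOX library and within the other S100a8 was 1.78-fold (1.70 to 1.86) and 1.15-fold (1.11 to 1.19) higher and Cxcr2 at 0.267 (0.0724 to 0.687) and 0.529 (0.299 to 0.872).

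Of the ligands listed beside the members, Vegfd, a lymphatic growth factor, was at 89.0 CPM and 129 CPM in PSC-like cells, a ratio of 1.45 (1.22 to 1.74), and Angpt1, the activating Tie2 ligand, had a ratio of 1.53 (1.43 to 1.64) in ductal-like cells, while Angpt4 had 0.481 (0.407 to 0.567) there, beside 0.410 in empty barcodes. These were 1 of 4 other ligands higher and 1 lower in ductal-like cells, against 5.86% and 8.54% of all genes. Among the inhibitors in PSC-like cells, Sema3a, a guidance cue that binds Nrp1, had 2.21 (1.53 to 3.26), Thbs1 0.645 (0.602 to 0.692) and Thbs2 0.600 (0.513 to 0.703). Of the 4 inhibitors with enough UMIs there, 1 was higher and 2 lower (median 0.775), against 9.82% and 11.4% of all genes. These genes were named after their values were seen.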
